A study of Mus musculus with 23 samples.

Results

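Dppa2, Dppa4, Dppa5a, Utf1 and Tdh are mouse genes known for their high expression in pluripotent cells and early germ cells. They were followed by name through a table of 8 groups that runs from embryonic stem cells to mature oocytes. They are 5 of the 22784 genes in that table, and each reached at least 1 FPKM (fragments counted per transcript length and sequencing depth) in at least 1 group, as did 14242 genes in all. The study made mouse oocytes in a dish and set them beside oocytes that had grown in the ovary. The 5 culture groups carried the strain label C57BL/6 X 129. They began with female embryonic stem (ES) cells kept in the inhibitor medium 2i with the cytokine LIF. Next came primordial germ cell-like cells (PGCLCs), which were induced for 6 days from female epiblast-like cells and purified by sorting. Reaggregated PGCLCs had then been kept for 3 days with gonadal somatic cells of female E12.5 embryos. Secondary follicle oocytes came from 21 days in such reaggregates, with the estrogen receptor blocker ICI182780 added for part of that time. Mature oocytes, arrested at the second meiotic metaphase (MII), followed 11 days of follicle culture with FSH and a first stretch with BMP15 and GDF9, then 16 hours in maturation medium with FSH, EGF and hCG. The 3 animal groups were labelled B6D2F1, an F1 hybrid. They were E12.5 primordial germ cells (PGCs) and secondary follicle oocytes of 8-day-old ovaries, both sorted with the BVSC reporter transgenes, and MII oocytes of 8-week-old females. Day 6 PGCLCs had 2 samples and every other group 3, 23 samples in all. Strain differed with route in every culture-to-animal comparison, so strain and route cannot be told apart.

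The germ line switches part of the pluripotency programme back on and then shuts it down when oocytes form. Dppa2 and Dppa4 are small chromatin proteins with SAP domains that bind each other, hold developmental promoters free of DNA methylation and, in ES cells, can switch on genes of the early embryo. Utf1 is a chromatin-bound protein that limits expression of bivalent genes and is a classical target of the factors Oct4 and Sox2. Dppa5a, also called Esg1, is a KH-domain protein that binds RNA. Tdh encodes mitochondrial threonine dehydrogenase, which with Gcat turns threonine into glycine and acetyl-CoA. Mouse ES cells are known to depend on this pathway.

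In the GENCODE annotation of build GRCm38 (mm10), Dppa4 spans 48283733 to 48294237 and Dppa2 spans 48303908 to 48319723 on chromosome 16. Both lie on the plus strand, 9670 bases apart, with Dppa4 first. Utf1 lies on chromosome 7 from 139943789 to 139945112 on the plus strand and has 2 exons. Dppa5a occupies 78367052 to 78368177 of chromosome 9, on the minus strand, and has 3 exons. Tdh occupies 63492347 to 63509092 of chromosome 14, also on the minus strand, with 9 exons, and an annotated antisense RNA, Gm17232, overlaps it. The libraries were directional, but no source used here says whether counting used strand. Utf1 had the widest range of levels among the 5 genes, and the bases before its start are shown here because it was also the 1 of 5 with an entry in the RefSeq promoter table. The stretch is chr7:139943606-139943788, on the plus strand of GRCm38, from RefSeq, and it ends at the base before the annotated start. Capitals mark GGGCGG, the core of the GC box that Sp1-family factors bind.

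Utf1 upstream: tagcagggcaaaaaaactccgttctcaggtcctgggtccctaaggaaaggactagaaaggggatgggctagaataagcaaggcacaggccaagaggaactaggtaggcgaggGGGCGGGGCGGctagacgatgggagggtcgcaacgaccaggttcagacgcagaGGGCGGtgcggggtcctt

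These 183 bases hold 3 matches to GGGCGG, 2 of which overlap by 1 base, and 10 CG dinucleotides. In the whole 300-base promoter window, read on both strands, Utf1 had 4 matches and 17 CG dinucleotides. At least 1 match is present in 35.7% of 32851 mouse promoter windows of that length, the median window holds 7 CG, and 94.5% of windows hold fewer GGGCGG matches than Utf1. The E-box CACGTG, held by 7.15% of windows, the TATA motif TATAAA, held by 13.6%, and the octamer-like ATGCAAA, held by 4.63%, had no match in the Utf1 window, again read on both strands. These matches are letters in a sequence, and no binding was measured. Sequence outside the 300-base window was not searched, so a missing match there says nothing about other regulatory sequence of Utf1.

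All values below are the FPKM that the authors deposited, 1 value for each gene and group, so no difference below has a replicate check, an error or a test. Depth was not given, and the number of reads behind an FPKM is unknown. Differences are given on the log2(FPKM + 1) scale, where a change of at least 1 is called 2-fold and where changes of low genes are understated. In bulk RNA, fewer expressing cells and less RNA per cell cannot be told apart. The libraries were made from poly(A) RNA, so less RNA and a shorter poly(A) tail cannot be told apart either. Summed FPKM was 268720 to 349772 in 6 groups, 616260 in culture MII and 975407 in animal MII oocytes, while the median over tested genes was 6.01 to 6.50 in those 6 groups, 3.77 in culture MII and 2.64 in animal MII. RNA of the MII groups came from 99 to 134 oocytes, against 337 to 812 for secondary follicle oocytes. Marker genes were looked up in the groups that their labels name. At or above 10 FPKM were 6 of 6 ES cell markers and 8 of 8 PGC markers in each PGC group. Of oocyte markers it was 10 of 10 in secondary follicle oocytes and 9 of 10 in MII oocytes, the exception being Figla at 4.37 and 1.76. All ES cell markers but Klf4, named after its values were seen, also reached 10 FPKM in each PGC group. They therefore do not tell ES cells from germ cells. Dppa3, 1 of the PGC markers, drives part of the BVSC sorting reporter, so in E12.5 PGCs it is no independent check. Whether other PGC markers are also tied to that reporter was not examined here. Summed levels of 15 somatic markers were 3.41 FPKM in E12.5 PGCs, 10.6 to 25.0 in the ES, PGCLC and secondary follicle groups, and 148 and 118 in culture and animal MII oocytes, where Gata4 (76.7 and 64.8) and Cyp19a1 (27.1 and 42.2) led. Of the 15, 6 were at or above 1 FPKM in each MII group and 1 and 3 were listed at 0. The part of somatic cells in the MII values was not tested.

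Dppa4 was a gene of the early groups. It stood at 19.8 FPKM in ES cells, 74.9 in day 6 PGCLCs, 52.3 after reaggregation and 62.1 in E12.5 PGCs. In oocytes it was 1.53 in culture and 2.68 in animal secondary follicles, then 0.119 in culture MII and listed at 0 in animal MII. Whether that 0 is a failed estimate or low expression was not tested. The 4 early groups lay within 3.78-fold of each other and all above every oocyte group, the nearest pair being ES cells and animal secondary follicle oocytes at 7.39-fold.

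Dppa2, its binding partner, followed another course. It was lowest of the early groups in ES cells, at 5.64 FPKM, with 13.5 in day 6 PGCLCs, 11.2 after reaggregation and 13.3 in E12.5 PGCs. Its highest levels were in secondary follicle oocytes, 16.9 from culture and 17.9 from animals. In MII oocytes it was 4.17 in culture and 1.11 in animals. Early and oocyte groups overlapped, and ordered by level all neighbouring groups were within 2-fold of each other except culture and animal MII.

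The balance between the partners therefore turned over. Per transcript length, Dppa4 was above Dppa2 by 3.51-fold in ES cells, 5.54-fold in day 6 PGCLCs, 4.66-fold after reaggregation and 4.68-fold in E12.5 PGCs. Dppa2 was above Dppa4 by 11.0-fold in culture and 6.65-fold in animal secondary follicle oocytes, and by 35.0-fold in culture MII oocytes. All 4 groups before follicle growth had more Dppa4 and all 4 oocyte groups more Dppa2. A ratio of FPKM within a group does not change with a scaling of the whole column, so it is not touched by the larger sums of the MII columns. The culture MII ratio, however, rests on Dppa4 at 0.119 FPKM, with an unknown number of reads behind it, so its size is uncertain.

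**Figure D1:**
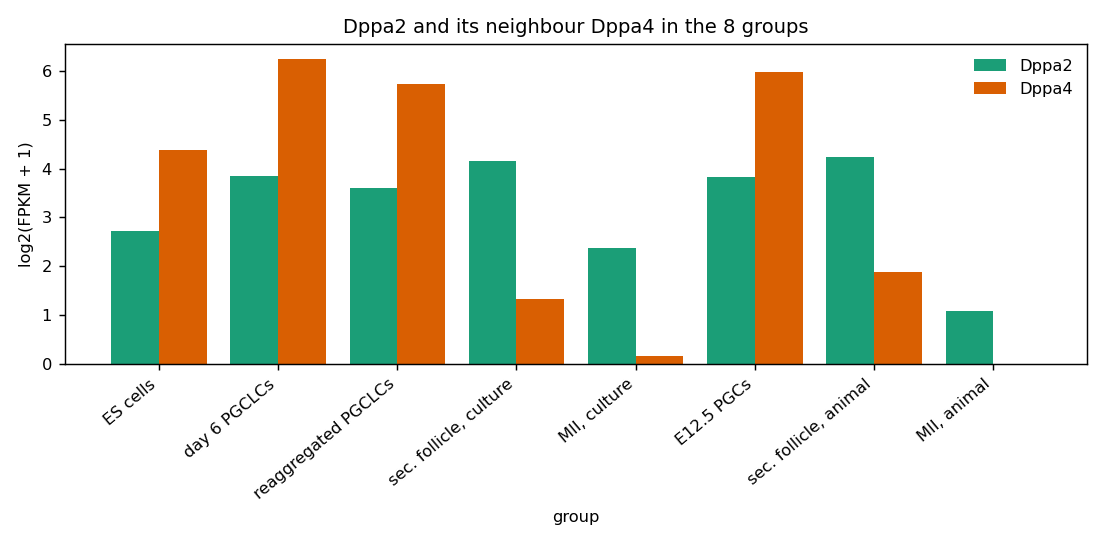
Bars give log2(FPKM + 1) of Dppa2 and Dppa4 in each of the 8 groups, 1 deposited value for each gene and group and so no error bars. Dppa4 is above Dppa2 in ES cells, both PGCLC groups and E12.5 PGCs, and Dppa2 is above Dppa4 in all 4 oocyte groups, with Dppa4 listed at 0 in animal MII oocytes.

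Utf1 went from among the most abundant RNAs to the floor of the table. It measured 183 FPKM in ES cells, 494 in day 6 PGCLCs, 391 after reaggregation and 370.2 in E12.5 PGCs. It ranked 44 in day 6 PGCLCs, 45 after reaggregation and 52 in E12.5 PGCs among all 22784 genes, but 248 in ES cells. Its oocyte levels were 0.124 in culture secondary follicles, 0.0833 in animal secondary follicles, 0.167 in culture MII and 0.0823 in animal MII. The lowest early group was 1097-fold above the highest oocyte group, and the 4 oocyte values lay close together near the floor.

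Dppa5a was the most abundant of the 5 genes in ES cells, where it measured 1042 FPKM and ranked 15. It was 545 in day 6 PGCLCs, 281 after reaggregation and 187 in E12.5 PGCs. It stayed high in the growing oocyte, at 263 in culture and 364 in animal secondary follicles, both above E12.5 PGCs. In MII oocytes it was 34.7 in culture and 4.34 in animals, where its rank was 2744 and 6289. The low groups for Dppa5a were thus the MII oocytes alone, whereas Dppa4, Utf1 and Tdh were already low in secondary follicles.

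Tdh, the metabolic gene, was highest in ES cells at 262 FPKM, with 198 in day 6 PGCLCs, 83.2 after reaggregation and 70.8 in E12.5 PGCs. It was 1.26 in culture and 0.491 in animal secondary follicle oocytes, and 0.256 and 0.0675 in culture and animal MII oocytes. All 4 early groups were above all 4 oocyte groups, by 56.4-fold between the nearest pair. From highest to lowest group, FPKM spanned 6004-fold for Utf1, 3873-fold for Tdh, 240.2-fold for Dppa5a and 16.1-fold for Dppa2.

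**Figure D2:**
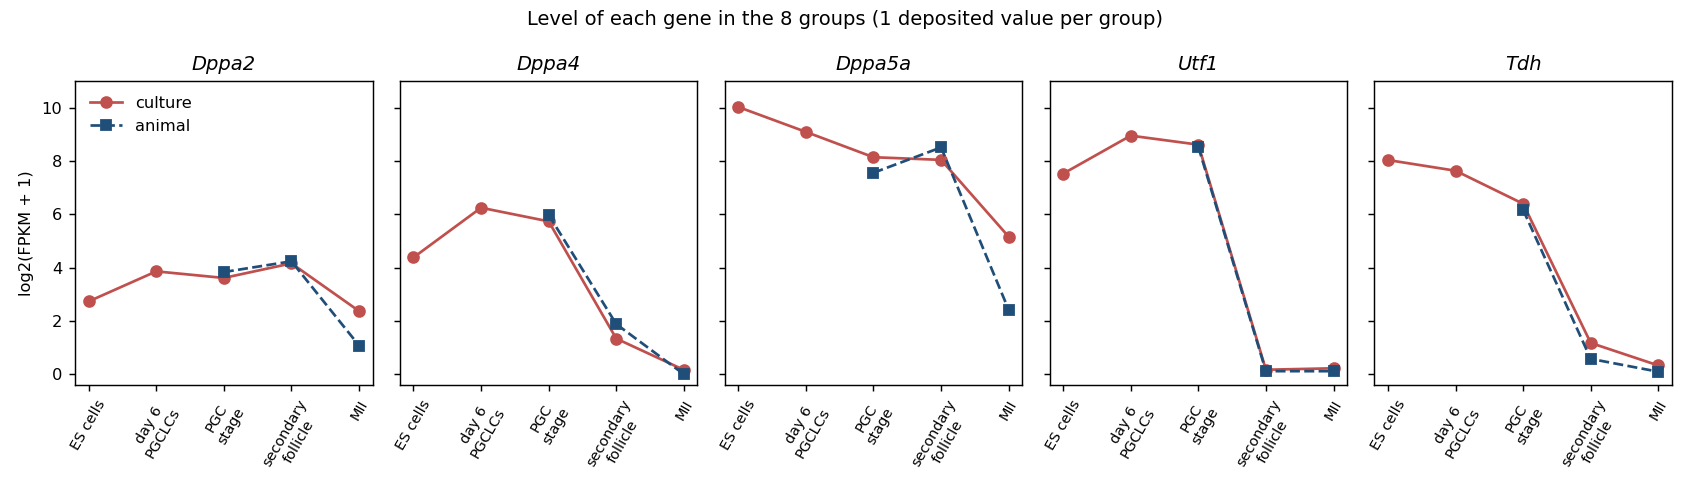
Each panel plots log2(FPKM + 1) of 1 gene by stage, with culture groups as circles on a solid line and animal groups as squares on a dashed line, 1 deposited value per point and no error bars. Dppa4, Utf1 and Tdh are high in the 4 early groups and low in all oocytes, Dppa5a stays at 263 and 364 FPKM in secondary follicle oocytes, and Dppa2 stays between 1.11 and 17.9 FPKM throughout.

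From ES cells to day 6 PGCLCs the genes parted. Dppa4 was higher by 1.87, Utf1 by 1.43 and Dppa2 by 1.13 on the log2 scale, which in FPKM is 3.78-fold, 2.70-fold and 2.39-fold. Dppa5a differed by -0.93, at 0.523 of its ES cell FPKM, and Tdh by -0.40, at 0.756 of it, neither past 2-fold. So 3 of 5 genes passed 2-fold upward and 0 downward, where 9.63% of all tested genes were higher and 12.0% lower. The median of the 5 was 1.13, beside 0.00 over all tested genes. The call for Dppa2 was lost with a pseudocount of 5 (0.80).

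Among 9 Oct4 and Sox2 factors and targets, 0 were higher and 4 were lower in day 6 PGCLCs, with a median of -0.94, where 9.63% of all tested genes were higher and 12.0% lower. Pou5f1, which encodes Oct4, was 845 and 699 FPKM and its partner Sox2 219 and 203 in ES cells and day 6 PGCLCs. Nanog, a core pluripotency factor, was 253 and 120.0. Spp1, a secreted glycoprotein gene, was 466 and 16.6. Utf1, a target of the same factors, was thus higher in day 6 PGCLCs while 4 of the 9 were lower. Of 18 other pluripotency genes, 1 was higher and 6 were lower. Among 8 germ cell markers 7 were higher, with Dppa3, a maternal-effect gene whose promoter drives the ECFP part of the BVSC reporter, at 17.2 and 228 FPKM.

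After reaggregation with gonadal cells all 5 genes were below their day 6 levels, with log2 differences from -0.25 for Dppa2 to -1.24 for Tdh. Only Tdh was past 2-fold, at 42.1% of its day 6 FPKM, where 5.04% of tested genes were lower and 5.15% higher. Dppa5a, at -0.95, lay just short of the threshold. The median of the 5 was -0.51, beside -0.02 over all tested genes. With quantile normalization Tdh was -0.96 and no member was past 2-fold. In the same comparison 6 of 9 Oct4 and Sox2 factors and targets and 7 of 18 other pluripotency genes were lower and 0 of either were higher, among them Nanog at 44.4 FPKM and Klf2, a naive pluripotency factor, at 38.3 after 130.2.

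Reaggregated PGCLCs and E12.5 PGCs are the closest culture and animal stages of early germ cells. The 5 genes differed by -0.22 (Dppa2), -0.24 (Dppa4), 0.58 (Dppa5a), 0.08 (Utf1) and 0.23 (Tdh), culture minus animal. None was past 2-fold in either direction, where 1.39% of tested genes were higher and 0.786% lower. Over all tested genes the 5th to 95th percentile of this difference ran from -0.49 to 0.61, and all 5 lay inside it. Somatic markers differed between these groups: 8 of 15 were at or above 1 FPKM in reaggregated PGCLCs and 0 of 15 in E12.5 PGCs, with sums of 19.7 and 3.41 FPKM.

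The step from germ cell to growing oocyte spread the 5 genes apart more widely than any other of the 9 comparisons. In culture, from reaggregated PGCLCs to secondary follicle oocytes, Utf1 changed by -8.44, Tdh by -5.22 and Dppa4 by -4.40. Dppa5a changed by -0.10 and Dppa2 by 0.55. In animals, from E12.5 PGCs to secondary follicle oocytes, the values were -8.42 for Utf1, -5.59 for Tdh, -4.10 for Dppa4, 0.95 for Dppa5a and 0.40 for Dppa2. The same 3 genes were thus at least 2-fold lower by both routes and 0 were higher. This step is large across the transcriptome: 26.4% of tested genes were lower and 25.2% higher in culture, 25.9% and 24.3% in animals. Utf1, Tdh and Dppa4 nevertheless lay below the 5th percentile of all tested genes in both routes, -2.67 in culture and -2.60 in animals, and Dppa2 and Dppa5a lay inside the 5th to 95th percentile range. Calls for these 3 genes held under all 6 alternative pseudocounts and scalings.

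**Figure D3:**
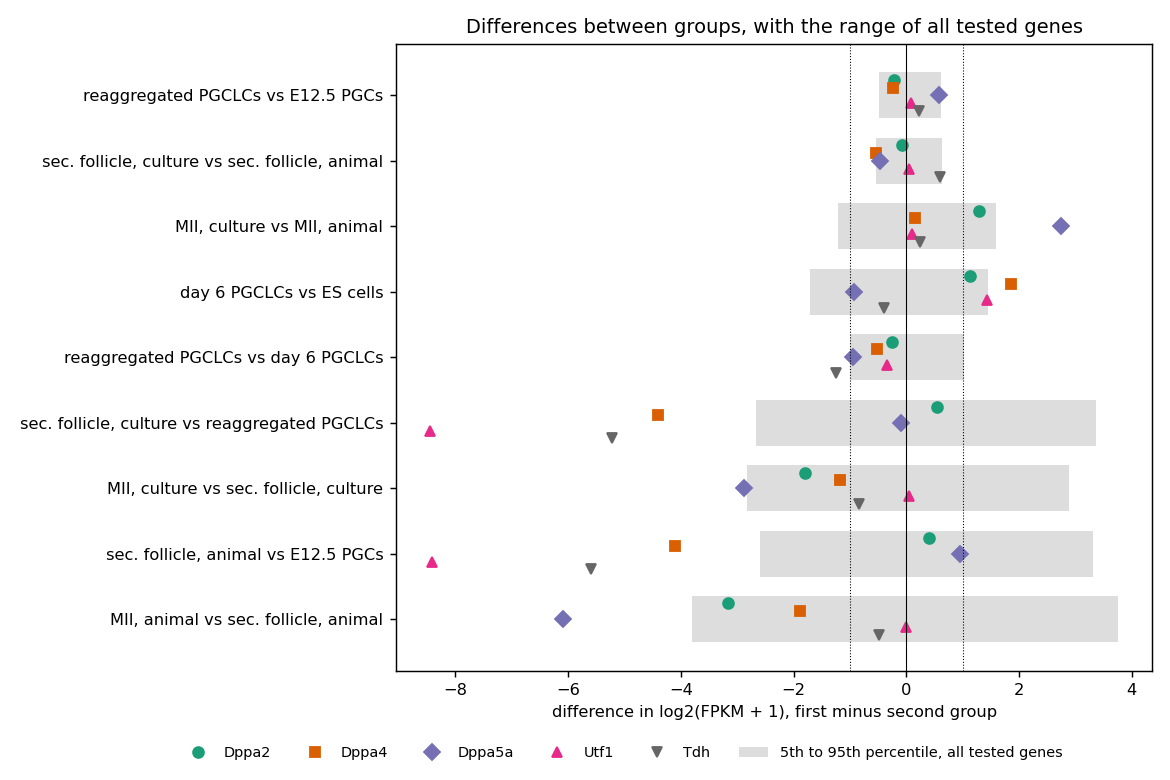
Difference in log2(FPKM + 1), first group minus second, for the 5 genes in 9 comparisons, with grey bars from the 5th to the 95th percentile of 14242 tested genes and dotted lines at 2-fold. Utf1, Tdh and Dppa4 lie left of the grey bar at the step to secondary follicle oocytes in both routes, and Dppa5a lies right of it in culture against animal MII oocytes.

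At the step to secondary follicle oocytes, Dppa5a was the 1 gene of the 5 whose change differed by 2-fold between routes. Its culture step minus its animal step was -1.05, from -0.10 and 0.95, past 2-fold, as for 5.19% of tested genes in either direction. The other genes had differences of 0.14 (Dppa2), -0.30 (Dppa4), -0.02 (Utf1) and 0.37 (Tdh). Behind this difference are 4 levels: reaggregated PGCLCs had 281 FPKM and E12.5 PGCs 187, while culture secondary follicle oocytes had 263 and animal ones 364.

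At the secondary follicle stage itself the 5 genes differed between routes by less than 2-fold on the log2(FPKM + 1) scale. Not all of these differences were small beside other genes. Culture minus animal was -0.08 for Dppa2, -0.54 for Dppa4, -0.47 for Dppa5a, 0.05 for Utf1 and 0.60 for Tdh. No gene was past 2-fold, where 1.74% of tested genes were higher and 0.660% lower. Over all tested genes the 5th to 95th percentile ran from -0.53 to 0.64. Dppa4 lay just below that range and the other members inside it. Tdh was near the upper end, above 94.2% of tested genes, and Dppa5a near the lower end, above 6.62%. The median of the 5 was -0.08, beside 0.00 over all tested genes. Tdh passed 2-fold, at 1.20, with a pseudocount of 0.1, on FPKM of 1.26 and 0.491.

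In MII oocytes, the genes still present in secondary follicle oocytes stood lower. In culture this step takes in 11 days of follicle culture as well as 16 hours of maturation. In animals it runs from 8-day-old ovaries to 8-week-old females. Oocyte growth and maturation therefore cannot be told apart here. In culture, from secondary follicle to MII oocytes, Dppa5a changed by -2.88, Dppa2 by -1.79 and Dppa4 by -1.17. Utf1 changed by 0.05 and Tdh by -0.84, both from levels of at most 1.26 FPKM. In animals the values were -6.09 for Dppa5a, -3.16 for Dppa2, -1.88 for Dppa4, 0.00 for Utf1 and -0.48 for Tdh. In each route 3 of 5 were at least 2-fold lower and 0 higher, where 28.6% of tested genes were lower and 23.9% higher in culture, and 33.1% and 28.0% in animals. Dppa5a lay below the 5th percentile of all tested genes in both routes, -2.83 and -3.80. The FPKM of poly(A) RNA was 83.8-fold lower for Dppa5a and 16.1-fold lower for Dppa2 in animal MII than in animal secondary follicle oocytes. Whether RNA was lost or poly(A) tails were shortened was not tested. Dppa4 lost its call in both routes with a pseudocount of 5 (-0.35 and -0.62) and with column medians set equal (-0.59 and -0.90), and for Tdh in animals that scaling turned the sign (0.50).

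The FPKM of Dppa5a and Dppa2 was higher in culture than in animal MII oocytes. Dppa5a was 34.7 FPKM in culture and 4.34 in animal MII oocytes, 8.00-fold, a log2 difference of 2.74 that exceeds 99.2% of tested genes. Dppa2 was 4.17 and 1.11, 3.75-fold, a difference of 1.29. Dppa4 (0.16), Utf1 (0.11) and Tdh (0.23) were not past 2-fold on levels of at most 0.256 FPKM. So 2 of 5 genes were higher and 0 lower, where 12.4% of tested genes were higher and 9.45% lower. Under equal column sums the split of all tested genes was 2385 higher and 168 lower in place of 1772 and 1346, and with column medians set equal it was 979 and 3112. The scalings moved the median of all genes by 0.22 and -0.39. Dppa5a remained past 2-fold under all 6 alternatives, at 1.86 to 3.12. Dppa2 did not with a pseudocount of 5 (0.59), quantile normalization (0.87) or column medians set equal (0.90). Dppa4, Utf1 and Tdh turned negative with column medians set equal, at -0.23, -0.28 and -0.15.

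The change from secondary follicle to MII oocytes differed in the same direction. Culture minus animal, it was 3.21 for Dppa5a, 1.37 for Dppa2, 0.71 for Dppa4, 0.06 for Utf1 and -0.36 for Tdh. Of the 5 genes 2 were past 2-fold, where 22.9% of tested genes were in either direction. This comparison uses the same MII and secondary follicle values as the comparisons above and adds no independent data. Of 10 oocyte marker genes, 5 were at least 2-fold higher in culture than in animal MII oocytes and 0 lower, beside 12.4% and 9.45% of all tested genes. The zona pellucida genes Zp2 (483 and 37.8 FPKM) and Zp3 (739 and 79.8) were among the 5, while the growth factor gene Gdf9 (6768 and 11132) and the oocyte-secreted protein gene Oosp1 (5368 and 10415) were below their animal levels without passing 2-fold. Their part in the result was not tested.

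Genes reported to act downstream of Dppa2 and Dppa4 in the 2-cell programme were mostly listed under 1 FPKM. Of 21 such genes 19 were in the table and 4 reached 1 FPKM in a group. Many of the others, such as the Zscan4, Usp17l and Tdpoz genes, belong to families of near-identical copies, and a value of 0 in this table can be a failed estimate: Tdg, a DNA repair gene named after its values were seen, is also listed at 0 in both MII groups. Their absence is therefore not shown. The 4 that reached 1 FPKM were at most 0.171 FPKM in the early groups, so they passed that filter through oocyte values alone. That all 4 were higher in secondary follicle oocytes than in the germ cells before them, in both routes, follows largely from the filter. Of all tested genes 25.2% were higher at that step in culture and 24.3% in animals. Sp110, a nuclear-body protein gene, was 0.0331 FPKM in reaggregated PGCLCs and 154 in culture secondary follicle oocytes, with 0.166 in E12.5 PGCs and 247 in animal ones. Arg2, the mitochondrial arginase, was 0.0511 and 114 in culture and 0.171 and 139 in animals. In MII oocytes Arg2 was higher in culture (12.1 against 1.11), as Dppa2 was. Tcstv1 (14.0 against 44.7) and Tcstv3 (1.52 against 6.42), 2-cell transcripts, were lower in culture. Among 4 tested genes reported as promoters bound by Dppa2 or Dppa4, the meiotic gene Syce1 was 21.5 FPKM in PGCLCs after reaggregation and 33.7 in E12.5 PGCs, then 2.19 and 2.94 in secondary follicle oocytes and at most 0.0600 in MII oocytes. Trap1a, an X-linked tumour antigen gene, was 297 in ES cells, 28.7 in day 6 PGCLCs and at most 2.34 in oocytes. Mael, a piRNA pathway gene, was 28.9 in reaggregated and 112 in E12.5 germ cells, and 42.7 and 82.7 in culture and animal secondary follicle oocytes, so the 3 did not share one course.

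Dppa2, Dppa4 and Utf1 are known to act at bivalent chromatin, where Polycomb repressive complex 2 writes the repressive mark. Of 12 genes for that complex and bivalent chromatin, 6 were lower in secondary follicle oocytes than in the germ cells before them in each route, and 2 were higher in culture and 1 in animals. Of all tested genes 26.4% were lower and 25.2% higher at that step in culture, and 25.9% and 24.3% in animals. The catalytic subunit Ezh2 was 52.3 FPKM in reaggregated PGCLCs and 108 in culture secondary follicle oocytes, opposite to Dppa4 and Utf1. Suz12, a core subunit, was 55.8 and 16.5. From secondary follicle to MII oocytes 8 of 12 were higher in culture and 9 in animals, and 0 were lower in either, while 0 of the 5 genes were higher. Of all tested genes 23.9% were higher and 28.6% lower at this step in culture, and 28.0% and 33.1% in animals.

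The Oct4 and Sox2 group shared part of the course of Utf1. At the step to secondary follicle oocytes 6 of 9 were lower in culture and 5 in animals, and 0 higher. Of all tested genes 26.4% were lower and 25.2% higher there in culture, and 25.9% and 24.3% in animals. Sox2 was 87.6 FPKM in reaggregated PGCLCs and 1.44 in culture secondary follicle oocytes, and Nanog 44.4 and 0.112. Pou5f1 did not follow: it was 398 in reaggregated PGCLCs, 232 in culture secondary follicle oocytes and 220.5 in culture MII, and 363, 197 and 233 in the animal groups. In MII oocytes Sox2 was 7.83 in culture and 14.9 in animals while Utf1 stayed at or below 0.167. Of 18 other pluripotency genes, 11 were lower and 3 higher at the step to secondary follicle oocytes in culture, 9 and 3 in animals. Among them Tcl1, a cofactor of the kinase Akt, was 55.0 in reaggregated PGCLCs, 508 in culture secondary follicle and 5104 in culture MII oocytes, while Utf1, Tdh and Dppa4 were lower in both of those oocyte groups than in reaggregated PGCLCs.

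**Figure D4:**
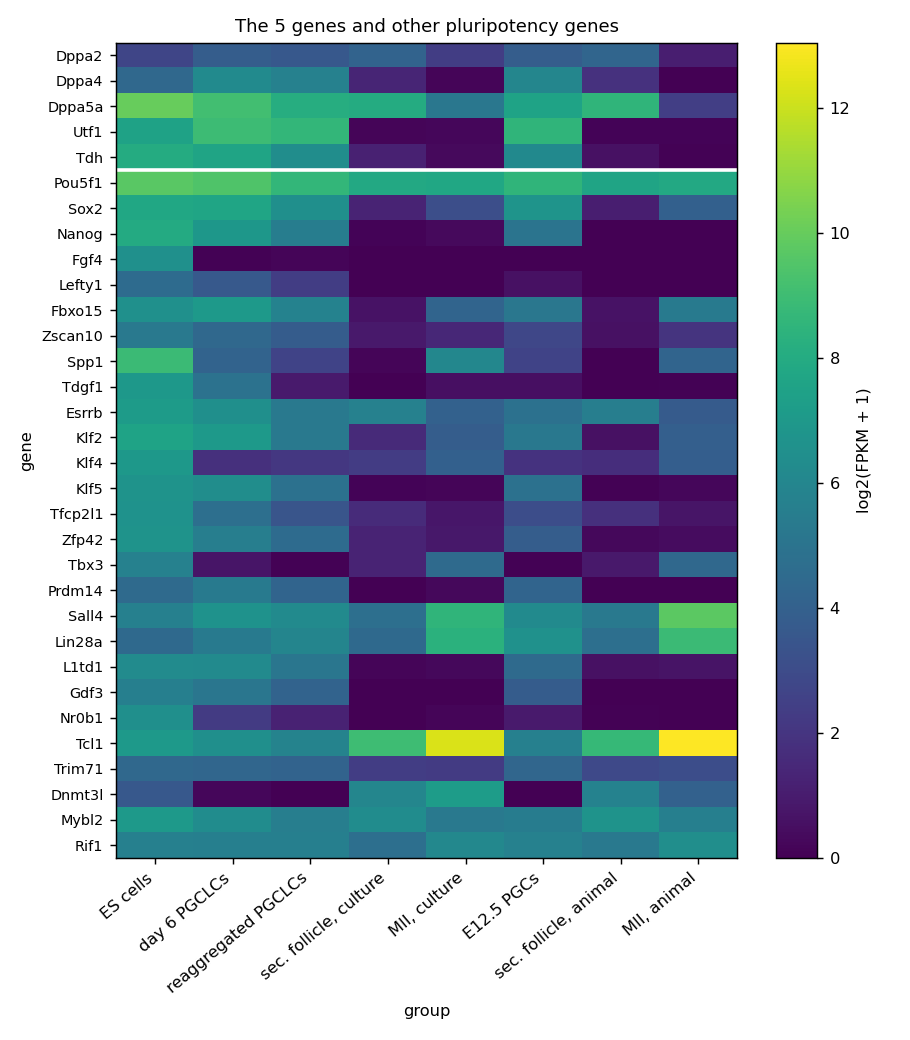
Colour gives log2(FPKM + 1) of the 5 genes, above the white line, and of 9 Oct4 and Sox2 factors and targets and 18 other pluripotency genes, below it, in the 8 groups, 1 deposited value per square. Utf1, Tdh and Nanog are at or below 1.26 FPKM in all 4 oocyte groups, Sox2 is at 7.83 and 14.9 FPKM in MII oocytes, and Pou5f1 stays between 197 and 233 FPKM in all 4 oocyte groups.

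At the step to secondary follicle oocytes, RNA of the first enzyme of threonine breakdown, Tdh, differed more than that of the second, Gcat. Gcat, which cleaves the Tdh product into glycine and acetyl-CoA, was 61.0 FPKM in ES cells, 45.4 in day 6 PGCLCs, 29.5 after reaggregation and 28.0 in E12.5 PGCs. It was still 24.4 and 23.8 in culture and animal secondary follicle oocytes, and 3.10 and 1.35 in MII oocytes. Tdh exceeded Gcat by 4.28-fold in ES cells, 4.36-fold in day 6 PGCLCs, 2.82-fold after reaggregation and 2.53-fold in E12.5 PGCs. In secondary follicle oocytes Gcat exceeded Tdh, by 19.4-fold in culture and 48.5-fold in animals, and in MII oocytes by 12.1-fold and 20.0-fold. The MII ratios rest on Tdh at 0.256 and 0.0675 FPKM, so their size is uncertain.

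The glycine cleavage system, which passes the carbon of glycine to folate, divided in the same way. Gldc, its decarboxylase, was 54.8 FPKM after reaggregation and 76.3 in E12.5 PGCs, but 0.0449 and 0.0424 in secondary follicle oocytes. Amt, its aminomethyltransferase, was 39.0 and 30.5, then 0.350 and 0.102. Gcsh, its carrier protein, was 44.5 and 45.6, then 7.54 and 8.61. Dld, a subunit shared with other dehydrogenase complexes and named after its values were seen, was higher in those oocytes, at 83.7 and 92.4 after 31.1 and 36.8. Of 19 threonine, glycine and folate genes, 7 were lower and 4 higher at this step in culture, 8 and 4 in animals, with medians of -0.26 and -0.47 beside -0.09 over all tested genes in each. The shares of all tested genes were 26.4% lower and 25.2% higher in culture, and 25.9% and 24.3% in animals. Mat2b, a subunit of methionine adenosyltransferase, was 34.6 in reaggregated PGCLCs and 419 in culture secondary follicle oocytes, and the mitochondrial folate enzyme Mthfd2 (20.3 and 47.1) was also higher. Shmt2, another such enzyme, stood higher too (12.49 and 24.19) but short of 2-fold on the log2(FPKM + 1) scale. From ES cells to day 6 PGCLCs 3 of the 19 were lower and 1 higher, with Shmt2 at 129 and 33.6 beside Tdh at 262 and 198. There 12.0% of all tested genes were lower and 9.63% higher.

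**Figure D5:**
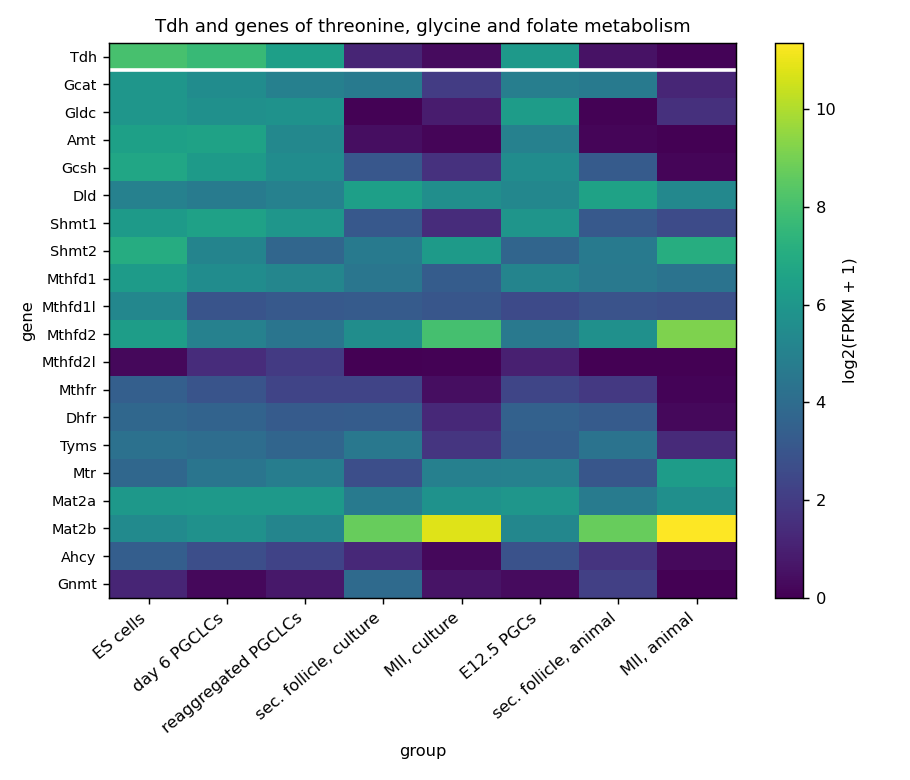
Colour gives log2(FPKM + 1) of Tdh, above the white line, and of 19 threonine, glycine and folate genes, below it, in the 8 groups, 1 deposited value per square. Tdh, Gldc and Amt are all at or below 1.26 FPKM in the secondary follicle oocytes of both routes, whereas Gcat is still at 24.4 and 23.8 FPKM there.

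Dppa5a has relatives with a KH domain, several of which form part of the oocyte's subcortical maternal complex. All 5 tested were higher at the step to secondary follicle oocytes, with medians of 6.00 in culture and 6.83 in animals, where Dppa5a changed by -0.10 and 0.95. Of all tested genes 25.2% were higher at that step in culture and 24.3% in animals. Khdc1b, at most 0.351 FPKM in the early groups, had passed the 1 FPKM filter through oocyte values alone. Ooep, the annotated gene 7931 bases from Dppa5a, was 172 FPKM in ES cells, 17.2 in reaggregated PGCLCs, 1161 in culture and 1147 in animal secondary follicle oocytes. In MII oocytes Ooep was 285 in culture and 51.9 in animals, and Khdc3, its partner, was 131 and 32.9. Ooep and Khdc3 were thus higher in culture MII oocytes, as Dppa5a was, and 2 of the 5 relatives were past 2-fold in that direction and 0 in the other. Of all tested genes 12.4% were higher and 9.45% lower in that comparison. Khdc1b went the other way in MII oocytes, at 1786 in culture and 3092 in animals. Of the other genes named for developmental pluripotency, Dppa1 was at most 0.00295 in the early groups and 0.872 to 1.62 in oocytes, and Dppa3 was 434 and 452 in culture and animal secondary follicle oocytes and 835 and 839 in MII oocytes.

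Across the 8 groups the 5 genes formed no single pattern. These correlations describe 8 points that share stages and columns, and carry no test. Utf1 and Tdh (Pearson r = 0.97, Spearman rho = 0.79), Utf1 and Dppa4 (0.97 and 0.88) and Dppa4 and Tdh (0.93 and 0.81) were close on the log2 scale. Dppa2 was less like its partner Dppa4 (0.51 and 0.43) than like Dppa5a (0.77 and 0.48), and was far from Utf1 (0.29 and 0.12) and Tdh (0.29 and 0.24).

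By Pearson r over the 8 groups, the most similar named genes among 8979 with at least 10 FPKM in a group differed for each. For Utf1 they were Foxh1 (r = 0.9997), a Nodal pathway transcription factor, then Col18a1, Zdhhc9, Liph and Ifitm1, a germ cell surface gene. Foxh1 was 57.4 FPKM in reaggregated PGCLCs and 0.0239 in culture secondary follicle oocytes. For Tdh they were Amt of the glycine cleavage system (r = 0.998), Kank3, Zfp13, the methylcytosine dioxygenase Tet1, and Pidd1. For Dppa4 they were the histone variant gene H2afy (r = 0.998), Slc7a6, Tubgcp3, Ndn and Bcl9l. For Dppa2 they were Ttc33 (r = 0.989), Fam162a, Ankrd49, Gas2l1 and Bnip3l, a mitophagy receptor. For Dppa5a they were Znrd1 (r = 0.992), Rab4b, Grb2, Prkcsh and Uggt1. Genes with r of at least 0.95 numbered 407 (4.53%) for Utf1, 495 (5.51%) for Tdh, 407 (4.53%) for Dppa4, 267 (2.97%) for Dppa5a and 89 (0.991%) for Dppa2. The order depends on the measure: by Spearman's rho these nearest genes took places from 1, for Ndn, to 1694, for Zdhhc9, and Foxh1 took place 264 for Utf1.

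The annotated neighbours had courses of several kinds. Kndc1, 2251 bases before Utf1, was at most 6.14 FPKM, with its highest level in reaggregated PGCLCs, and at most 0.00397 in oocytes. Mtmr9, beside Tdh, stayed between 17.1 and 32.4 in all groups, and Fam167a, on the other side, was 0.879 in reaggregated PGCLCs and 18.6 in culture secondary follicle oocytes. Omt2b, an oocyte gene near Dppa5a, was 142 in culture secondary follicle and 1364 in culture MII oocytes and at most 0.164 in the early groups. Gsta2, next to Dppa5a, was at most 2.40, and Gm5485, beyond Dppa2, at most 0.0475. Morc1, 111513 bases from Dppa2 and named after its values were seen, was 46.2 in ES cells, 30.0 in day 6 PGCLCs, 4.42 after reaggregation and 4.40 in E12.5 PGCs.

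Part of each transcript except Utf1 is shared with other annotated genes, mostly processed pseudogenes. The share of 50-base stretches also found in another gene's transcripts was 38.6% for Dppa5a, 35.1% for Dppa4, 29.1% for Dppa2, 15.0% for Tdh and 0 for Utf1. Reads of those stretches could have been split between genes. Gm6083, a Dppa5a pseudogene in the table that was also named after its values were seen, had 34.8% to 38.9% of the Dppa5a FPKM in 7 groups and 69.2% in animal MII oocytes (3.00 and 4.34). The coding gene Pigp, which shares 12.3% of the Dppa5a stretches and was likewise named after its values were seen, was 10.7 to 31.3 FPKM in the ES, PGC, PGCLC and secondary follicle groups and 79.6 and 87.2 in culture and animal MII oocytes, above Dppa5a in both. The Dppa5a levels of both MII groups are therefore uncertain, and the part of shared reads in their difference was not tested.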

How the data were processed

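Poly(A) RNA of 23 samples in 8 groups was sequenced from directional libraries. Per the submitters' processing notes, TopHat2, Bowtie2 2.0.13, Cufflinks and Cuffdiff 2.2.1 were used with build mm10. The authors deposited 1 FPKM column for each group, and how replicates were combined, the annotation and the depth are not given in the sources used here. That value per group allows no test, error or interval.

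Here, genes with at least 1 FPKM in at least 1 group were kept (14242 of 22784). Differences were taken as log2(FPKM + 1), and 1 or more in size was called 2-fold. The arithmetic was checked on simulated data. The 5 genes and all gene lists were chosen with earlier results of these data known. Besides the 5 genes, the text names up to 4 genes of a list by highest FPKM, Pou5f1, Sox2, Nanog, Dppa3, Gcat and Gldc in any case, the 5 genes closest by Pearson r, and the 2 nearest annotated genes on either side. Exceptions are named as such.

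Coordinates and shared 50-base stretches came from GENCODE M21, the Utf1 sequence from RefSeq GRCm38.p6. Promoters of Dppa2, Dppa4, Dppa5a and Tdh were not analysed here. Python 3.11.15, pandas 2.3.3, NumPy 2.4.6 and matplotlib 3.10.9 were used.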

Additional observations from a re-analysis of the deposited data

Results flagged for a closer look

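The change of Dppa5a from the germ cell to the secondary follicle oocyte differed in sign between the routes, though neither change passed 2-fold and the culture change was close to 0. From reaggregated PGCLCs to culture secondary follicle oocytes its log2(FPKM + 1) changed by -0.10, and from E12.5 PGCs to animal secondary follicle oocytes by 0.95. The steps differ by -1.05, culture minus animal, and by -1.25 to -1.01 under the 6 alternatives. The groups have 1 deposited value each, so this difference was not tested.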

How the results depend on the processing

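Each of the 55 member differences was recomputed under 6 alternatives: pseudocounts of 0.1 and 5, quantile normalization, equal column sums, centring on the median of all genes, and column medians set equal, the last chosen after seeing the data. Of 330 values, 309 stayed on their side of the 2-fold line, 9 newly passed it and 12 no longer did. Of the 309, 14 turned sign (10 of Utf1, 3 of Tdh and 1 of Dppa4), all from differences of at most 0.48 in size, and 0 differences past 2-fold did. The count of the 5 genes past 2-fold changed in 8 comparisons, in 4 of them by over 1.5 times. For culture against animal secondary follicle oocytes the count went from 0 to 1 with a pseudocount of 0.1. For culture against animal MII oocytes it went from 2 to 4 with a pseudocount of 0.1, and to 1 with a pseudocount of 5, quantile normalization or equal column medians. For reaggregated against day 6 PGCLCs it went from 1 to 0 with quantile normalization. For the change from secondary follicle to MII, culture minus animal, it went from 2 to 1 with a pseudocount of 5, quantile normalization or equal column medians. Other calls that changed were Dppa5a in day 6 PGCLCs against ES cells (-1.07 with quantile normalization) and at the animal step to secondary follicles (1.04 after centring). With a pseudocount of 0.1, Dppa4 (1.13) and Tdh (1.09) passed 2-fold in culture against animal MII oocytes. With that pseudocount Dppa4 also passed it in the change from secondary follicle to MII, culture minus animal (1.91). From secondary follicle to MII, Tdh passed it with a pseudocount of 0.1 (-1.93 in culture and -1.82 in animals) and equal column sums (-1.12 in culture). The cause was not tested.

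Of 176 counts over all tested genes, including filters of 5 FPKM and none, 46 moved by over 1.5 times, 20 of them with a pseudocount of 5, under which culture against animal MII oocytes gave 642 higher and 844 lower in place of 1772 and 1346. Equal column sums gave, higher and lower, 1326 and 532 for reaggregated against day 6 PGCLCs (733 and 718 before) and 3138 and 4982 for the culture step to secondary follicles (3594 and 3755). From secondary follicle to MII oocytes they gave 2131 and 5619 in culture (3409 and 4070) and 2170 and 6499 in animals (3988 and 4715). Equal column medians gave 4767 and 2629 there in culture, and 6089 and 2858 in animals. For the change from secondary follicle to MII, culture minus animal, equal column sums gave 2422 and 278, and equal column medians 944 and 3205 (1753 and 1514). No paired analysis was possible because the table holds 1 value for each group, and leaving out single samples could not be run for the same reason. Depth is unknown, so how far counting error reaches into levels under 1 FPKM cannot be given.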

Other observations

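Dppa2 and Dppa4 are known to keep developmental promoters free of DNA methylation, and genes for methylation and demethylation followed several courses. Of 8 tested, 5 were at least 2-fold lower in day 6 PGCLCs than in ES cells, beside 12.0% of all tested genes, while Dppa2 and Dppa4 were higher. Uhrf1, which guides the maintenance methyltransferase, was 123 FPKM in ES cells and 7.26 in day 6 PGCLCs. At the step to secondary follicle oocytes 5 of 8 were higher and 2 lower in culture, and 6 and 2 in animals. Of all tested genes 25.2% were higher and 26.4% lower there in culture, and 24.3% and 25.9% in animals. The 2 lower genes were the methylcytosine dioxygenases Tet1, also among the genes closest to Tdh, and Tet2, named after its values were seen. Tet1 was 18.0 in reaggregated PGCLCs and 0.388 in culture secondary follicle oocytes, and Tet2 5.67 and 0.167. Tet3, another such dioxygenase, was higher at that step, at 0.797 and 25.4. Dnmt1, the maintenance methyltransferase, was 87.9 in reaggregated PGCLCs and 723 in culture secondary follicle oocytes. Dnmt3l, a cofactor of de novo methylation, was 0.00840 and 62.1. In MII oocytes Dnmt3l was 147 in culture and 15.6 in animals, and Tet3, which oxidises methylcytosine, was 847 and 1937.

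Of 4 genes linked to Utf1 function, Dcp1a, an mRNA decapping factor that binds Utf1, was 10.8 FPKM in reaggregated PGCLCs, 39.3 in culture secondary follicle oocytes and 1473 in culture MII oocytes, with 2678 in animal MII oocytes. Utf1 was near the floor in all 4 oocyte groups, at most 0.167 FPKM. Cdkn2a, the locus of the Arf tumour suppressor, was 40.2 in reaggregated PGCLCs and 11.3 in culture secondary follicle oocytes. Mycn, a growth regulator, was 47.7 and 0.0283, the same direction as Utf1.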
